A study of Macaca mulatta with 16 samples.

Results

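Zinc and iron handling genes were described in lung RNA of 16 rhesus macaque fetuses. The members are 9 genes of the table's 22515, found by mapping the Ensembl IDs of the table to the symbols SLC39A8, SLC39A14, SLC30A1, MTF1, SLC11A1, SLC40A1, TFRC, HMOX1 and STEAP4. Each symbol matched 1 ID, and all 9 members passed the filter on low counts that left 19199 genes.

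The labels place the animals in 5 groups. Preterm controls (n = 4, animals 092, 101, 113 and 209) received nothing and were delivered at 131 to 135 days of gestation. The LPS 16h group (n = 4, animals 026, 029, 035 and 038) received 1 mg of bacterial lipopolysaccharide by intraamniotic injection at 129 or 130 days and was delivered 16 hours later. The LPS 5d group (n = 3, animals 239, 240 and 242) received the same LPS at 126 to 129 days and was delivered 5 days later. The LPS + Beta-Ac 5d group (n = 3, animals 248, 249 and 255) received that LPS at 126 or 127 days. The dam also received 0.125 mg/kg of betamethasone-acetate (Beta-Ac, a glucocorticoid) by intramuscular injection. This group was delivered 5 days later, at 131 or 132 days. Term controls (n = 2, animals 200 and 201) received nothing and were delivered at 156 and 157 days. No group was injected with vehicle, so the injection itself cannot be told apart from LPS. Each animal gave 1 library from frozen lung, a mixture of all lung cells, in which fewer cells of a type and less RNA per cell cannot be told apart.

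Libraries held 20169363 to 48052891 counts, and those of LPS 16h were the deepest, at 30596371 or more. Markers of alveolar type 2 cells, the surfactant-producing epithelium of the lung, summed to between 7056 and 32360 CPM (counts scaled to a common library size) in each animal, so the lung label was met. No library was a copy of another of its own group: pairs of the same group differed by 32.5 times counting error or more (chi-square per degree of freedom). Pairs from different groups were not compared in this way.

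Zinc and iron are needed by every cell and are toxic when free, so their passage is held by importers, exporters, storage proteins and sensors. In inflammation, hosts withdraw both metals from body fluids into cells and binding proteins, which limits their supply to microbes. Zinc importers of the SLC39 family carry zinc into the cytosol, where metallothioneins bind it, and the exporter SLC30A1 returns it to the outside. Transferrin-bound iron enters through TFRC, is reduced in the endosome by STEAP proteins, leaves the endosome through the SLC11 family, is stored in ferritin and leaves the cell through SLC40A1 (ferroportin).

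Intraamniotic LPS was followed at 16 hours by a rise of 5 of the 9 members. They were both zinc importers SLC39A8 and SLC39A14, the transferrin receptor TFRC, the heme-degrading enzyme HMOX1 and the metalloreductase STEAP4. A gene was called when it changed by at least 2-fold and its p, adjusted after Benjamini and Hochberg over all genes tested, was below 0.05 (limma). Over all genes, 14.4% were called in LPS 16h against preterm controls. At 5 days, 3 members were still called higher than in preterm controls, namely SLC39A8, HMOX1 and STEAP4, against 4.83% of all genes. The same 3 were called in LPS + Beta-Ac 5d (6.5% of all genes) and in term controls (2.07% of all genes). These 4 comparisons share the preterm controls. No member was called lower in any of them. The members were chosen with earlier results of these data known, so the shares over all genes are given as a description and not as a test.

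**Figure D1:**
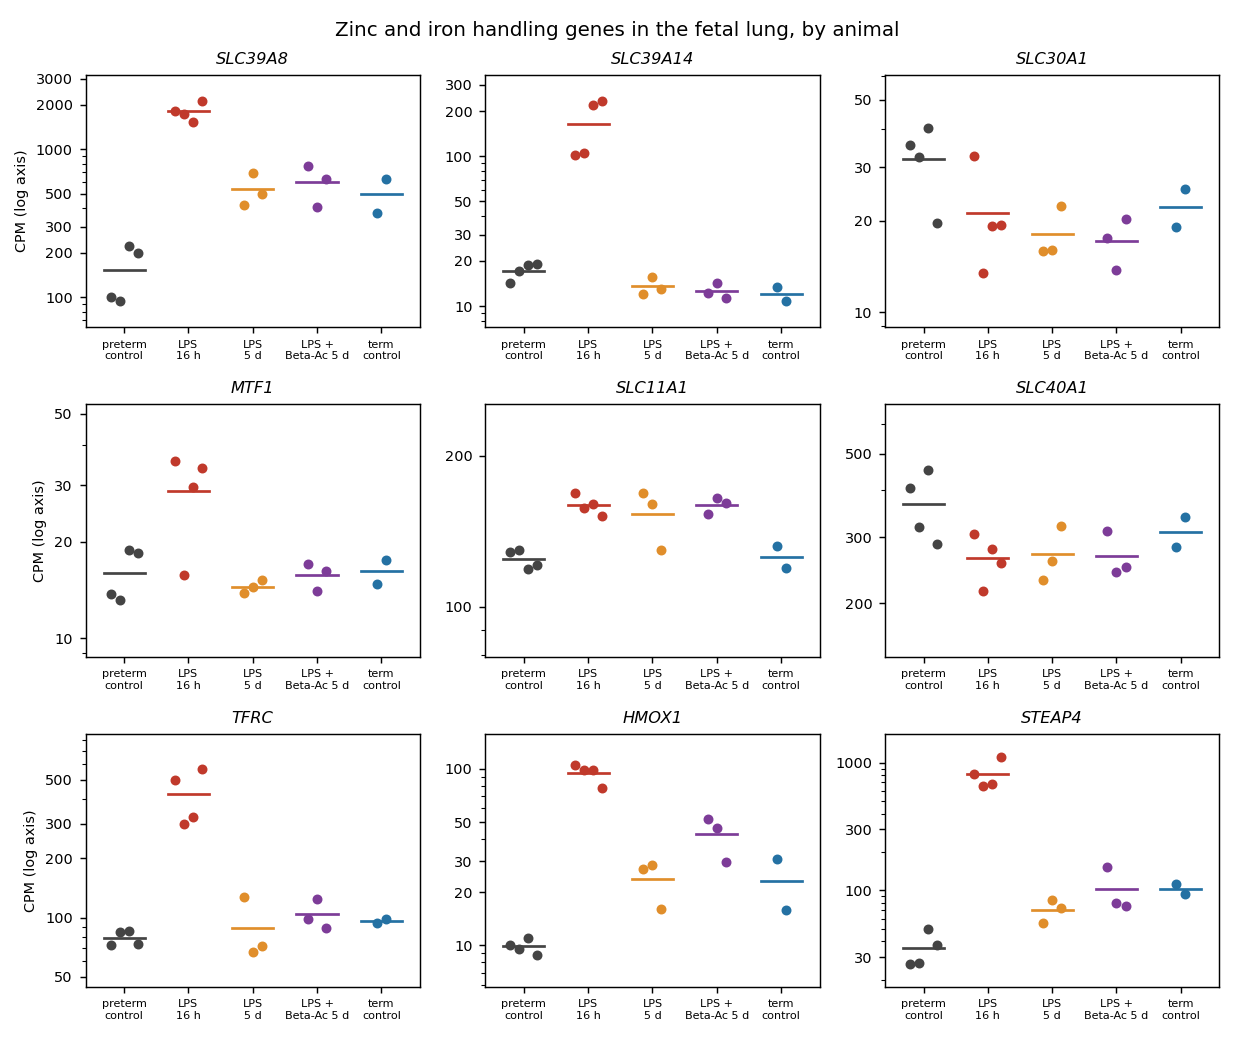
Level of each of the 9 genes in CPM (y axis, log scale, with a range of its own in each panel) by group; points are animals and lines are group means. SLC39A8, SLC39A14, TFRC, HMOX1 and STEAP4 stand apart from all other groups at 16 hours, and SLC39A8, HMOX1 and STEAP4 are also above the preterm controls in the other groups.

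SLC39A8 (ZIP8) imports zinc and other divalent metals at the cell surface and was called higher in all 4 groups than in preterm controls. It stood at 99.9, 94.3, 221 and 199.8 CPM in preterm controls 092, 101, 113 and 209. It reached 1807, 1747, 1528 and 2137 CPM in LPS 16h animals 026, 029, 035 and 038. At 5 days it was at 422, 697 and 501 CPM after LPS (animals 239, 240 and 242) and at 768, 410.1 and 632 CPM after LPS + Beta-Ac (animals 248, 249 and 255). Term controls 200 and 201 held 369 and 633 CPM. All 16h animals lay above all others, and all preterm controls lay below all others, whereas the ranges of the groups at 5 days and at term overlapped. SLC39A8 was 12.5-fold higher in LPS 16h than in preterm controls (log2 3.65 ± 0.29 SE, adjusted p = 2.7e-07). It was 3.69-fold higher in LPS 5d (adjusted p = 0.0016), 4.09-fold higher in LPS + Beta-Ac 5d (adjusted p = 0.00068) and 3.38-fold higher at term (adjusted p = 0.018). The call at term was lost without term control 201, with a log2 difference of 1.37 and an adjusted p of 0.14.

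SLC39A14 (ZIP14), an importer of zinc and of iron that is not bound to transferrin, was called at 16 hours and in none of the other 3 groups. Its preterm levels were 14.2, 17.0, 18.7 and 19.1 CPM. LPS 16h animals 026 and 029 had 102 and 105 CPM, and animals 035 and 038 had 219.7 and 235 CPM, so that the group fell into a lower and a higher pair. The increase was 8.93-fold (log2 3.16 ± 0.24 SE, adjusted p = 1.0e-07). LPS 5d animals had 12.1, 15.6 and 13 CPM, LPS + Beta-Ac 5d animals 12.3, 14.3 and 11.4 CPM, and term controls 13.3 and 10.9 CPM. Both groups at 5 days overlapped the preterm controls. Both term controls lay below every preterm control, with a log2 difference of -0.50 (adjusted p = 0.39). The log2 difference of LPS 5d from preterm controls was -0.34 (95% interval -0.90 to 0.22, adjusted p = 0.44).

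SLC30A1 (ZNT1), the zinc exporter of the plasma membrane, had a lower fitted mean than in preterm controls in all 4 groups and was called in none. Preterm controls had 35.5, 32.4, 40.3 and 19.6 CPM, and LPS 16h animals had 32.7, 13.4, 19.3 and 19.4 CPM. At 5 days the levels were 15.9, 16.0 and 22.4 CPM after LPS and 17.6, 13.8 and 20.3 CPM after LPS + Beta-Ac, and term controls had 19.0 and 25.5 CPM. Preterm control 209 was within the range of the treated animals. The log2 difference from preterm controls was -0.62 at 16 hours (adjusted p = 0.077), -0.79 in LPS 5d (adjusted p = 0.077) and -0.86 in LPS + Beta-Ac 5d (adjusted p = 0.049, under 2-fold). Without preterm control 209 the last became -1.08 with an adjusted p of 0.012, which met the call, and LPS 5d became -1.01 with an adjusted p of 0.020, which also met it.

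MTF1, the zinc-sensing transcription factor that drives metallothionein genes, was near the threshold of a call at 16 hours. Preterm controls had 13.7, 13.1, 18.8 and 18.4 CPM. LPS 16h animals 026, 035 and 038 had 35.7, 29.5 and 33.9 CPM, and animal 029 had 15.8 CPM, within the preterm range. The increase was 1.73-fold (log2 0.79 ± 0.22 SE, adjusted p = 0.0091). It met the call without animal 029 (log2 1.08, adjusted p = 6.7e-05). The other groups lay between 13.8 and 17.6 CPM. MTF1 overlaps the neighbouring gene INPP5B in a later rhesus annotation, and whether strand was used in counting is not given in the sources used here.

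Genes of the same zinc pathway were read from lists of known zinc transporters and metallothioneins. Of 21 zinc importers and exporters tested, SLC39A8 and SLC39A14 included, 3 were called higher and 1 lower at 16 hours, which is 19% of them beside 14.4% of all genes. The third was SLC39A1, a widely expressed zinc importer, with 131 CPM in preterm controls and 269 CPM at 16 hours (log2 1.03 ± 0.10 SE, adjusted p = 8.4e-07). Its call fell under 2-fold without animal 029 or without animal 035, with log2 values of 0.99 or more. The 1 called lower was SLC39A2, another importer, with 2.79 CPM in preterm controls and 0.42 CPM at 16 hours (log2 -2.59, adjusted p = 9.3e-05). The median log2 change of these 21 genes was 0.31, and that of all genes tested was -0.087. At 5 days after LPS, 2 of the 21 were called (9.52%, beside 4.83% of all genes), SLC39A8 and SLC39A4. SLC39A4, the importer known from intestinal zinc uptake, was at 6.46 CPM in preterm controls and 14.6 CPM in LPS 5d (log2 1.17, adjusted p = 0.0084). The SLC39A4 call was lost without animal 242, with a log2 difference of 0.88.

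Metallothioneins, the small cysteine-rich proteins that bind zinc and copper, rose steeply at 16 hours. MT2A ranged from 0.78 to 3.10 CPM in preterm controls and from 239 to 569.6 CPM in LPS 16h animals, a log2 difference of 7.73 ± 0.38 SE (adjusted p = 1.5e-09). MT1X ranged from 3.94 to 5.5 CPM and from 54.1 to 176 CPM, a log2 difference of 4.32 ± 0.28 SE (adjusted p = 2.0e-08). Of 6 rows tested of metallothioneins and metal-responsive factors, 4 were called higher (66.7%, beside 14.4% of all genes). Beside MT2A and MT1X these were 2 IDs that share the symbol MT1E, and the median log2 change of the 6 was 3.73. Metallothionein genes are near copies of one another, so how reads were divided among them is uncertain. At 5 days after LPS, MT2A ranged from 4.39 to 5.45 CPM (log2 1.41, adjusted p = 0.031), a call that was lost in 7 of 15 alternative analyses. After LPS + Beta-Ac it ranged from 6.09 to 12.7 CPM (log2 2.27, adjusted p = 0.0016).

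**Figure D2:**
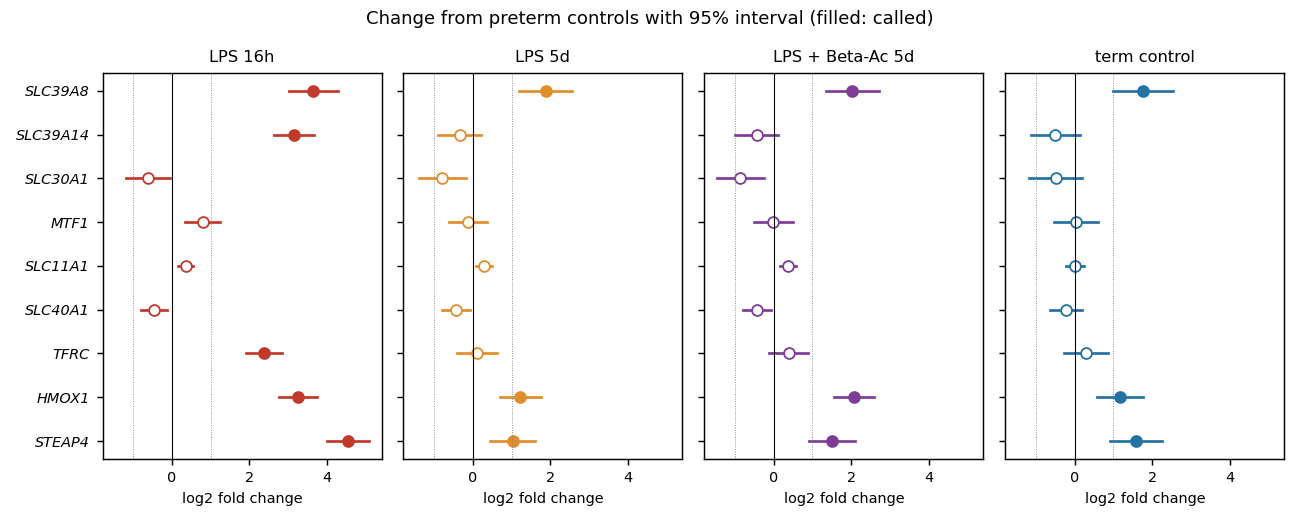
Log2 fold change of the 9 genes from preterm controls (x axis) in LPS 16h, LPS 5d, LPS + Beta-Ac 5d and term controls; bars are 95% intervals, filled points are called and dotted lines mark a 2-fold change. SLC39A14 and TFRC are called at 16 hours and their intervals include 0 in the other 3 panels.

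TFRC, the receptor that takes up transferrin-bound iron, rose at 16 hours in every animal. It was at 72.7, 84.4, 85.2 and 73.3 CPM in preterm controls and at 499, 298, 325 and 569.6 CPM in LPS 16h animals. The groups stood far apart, and the increase was 5.17-fold (log2 2.37 ± 0.22 SE, adjusted p = 8.4e-07). LPS 5d animals had 127, 66.9 and 71.6 CPM, a log2 difference of 0.10 (95% interval -0.40 to 0.61, adjusted p = 0.83) that became -0.18 without animal 239, the only one of the 3 above the preterm range. LPS + Beta-Ac 5d animals had 98.3, 125 and 88.5 CPM, all above the preterm range, with a log2 difference of 0.39 (adjusted p = 0.30). Term controls had 94.2 and 98.8 CPM.

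TFRC is also high in erythroid precursors and in dividing cells, and their markers were read beside it. The globin symbols HBB, HBA2, HBG1 and HBG2 of the erythroid list were not matched, so they are missing from its sum. The 8 erythroid markers in the table summed to 218 to 655.5 CPM in preterm controls and 205 to 641.5 CPM at 16 hours, and 0 of the 8 were called (limma, 1 of 8 at an unadjusted p below 0.05). HBA1 makes up most of that sum, and without it the other 7 summed to 25.2 to 88.4 CPM and 46.2 to 123.5 CPM. Of the 8, 7 had a positive log2 difference, and the median was 0.68 beside -0.087 over all genes. Their part in the TFRC result was not tested. The 8 markers of proliferating cells summed to 162 to 231 CPM and 150.4 to 194 CPM, and 0 of the 8 were called (1 of 8 at an unadjusted p below 0.05). At 5 days after LPS the proliferation markers summed to 93.6 to 103 CPM and 6 of the 8 were called lower.

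STEAP4 reduces iron and copper at the plasma membrane and in endosomes and had the largest change of the 9 members at 16 hours. It was at 26.6, 27.2, 50.2 and 37.4 CPM in preterm controls and at 816, 656.5, 678.5 and 1116 CPM in LPS 16h animals. This 23.3-fold increase (log2 4.55 ± 0.25 SE, adjusted p = 5.5e-09) ranked 124th from the top among the 19199 genes. After 5 days of LPS the animals had 55.3, 83.7 and 72.9 CPM, above every preterm control, and 2.04-fold more on average (adjusted p = 0.021). That call was close to the 2-fold threshold. Without preterm control 092, without preterm control 101, without LPS 5d animal 240 or without LPS 5d animal 242 it was lost, with log2 differences of 0.89 to 0.99. LPS + Beta-Ac 5d animals had 152, 80.4 and 75.4 CPM, a 2.85-fold increase (adjusted p = 0.0017). Term controls had 112 and 93.9 CPM, 3.0-fold above preterm controls (adjusted p = 0.014). That call was lost without term control 200 (log2 1.46, adjusted p = 0.12).

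SLC11A1 (NRAMP1), which carries iron and manganese out of the phagosome of macrophages and neutrophils, differed from preterm controls by less than 2-fold in every group. Preterm controls had 129, 129.5, 119 and 121 CPM and LPS 16h animals had 169, 157, 160.4 and 152 CPM. The groups did not overlap, and the increase was 1.28-fold (log2 0.36 ± 0.09 SE, adjusted p = 0.0057). The LPS 5d group had 168.5, 160.1 and 129.5 CPM (log2 0.28, adjusted p = 0.064). LPS + Beta-Ac 5d animals had 153, 165 and 161 CPM, 1.28-fold above preterm controls (adjusted p = 0.020). Term controls had 132 and 119 CPM.

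SLC11A2 (DMT1), the relative of SLC11A1 that carries iron out of endosomes, was one of the other genes of iron uptake that rose at 16 hours. It ranged from 62.9 to 78.4 CPM in preterm controls and from 521 to 739 CPM at 16 hours (log2 2.98 ± 0.16 SE, adjusted p = 3.4e-09). Of 14 genes of iron uptake and endosomal release, TFRC and STEAP4 included, 8 were called higher and 1 lower at 16 hours. That is 64.3% of them beside 14.4% of all genes, with a median log2 change of 1.3 beside -0.087. STEAP1, of the same family as STEAP4, was at 0.62 CPM in preterm controls and 14.4 CPM at 16 hours (log2 4.45, adjusted p = 4.9e-08). STEAP2 was at 0.82 and 4.14 CPM (log2 2.45, adjusted p = 0.0013). The 1 called lower was CYBRD1, the duodenal ferric reductase, with 453 and 177 CPM (log2 -1.34 ± 0.15 SE, adjusted p = 5.0e-06). At 5 days the list held 1 call after LPS, STEAP4, and 2 after LPS + Beta-Ac, STEAP4 and STEAP3. These are 7.14% and 14.3% of the list, beside 4.83% and 6.5% of all genes. STEAP3, the main endosomal reductase of erythroid cells, was at 2.42 CPM in preterm controls and 5.75 CPM after LPS + Beta-Ac (log2 1.21, adjusted p = 0.0097), a call that was lost without animal 249 (adjusted p = 0.054).

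**Figure D3:**
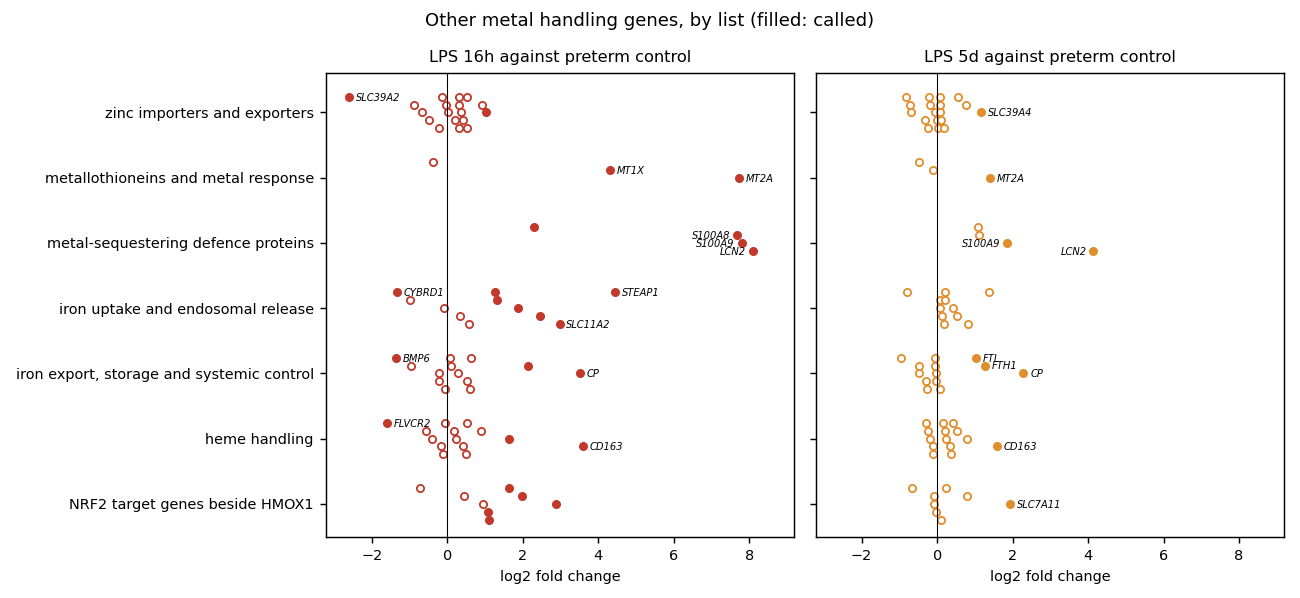
Log2 fold change (x axis) of the other genes of 7 metal handling lists (y axis) at 16 hours and at 5 days after LPS, each against preterm controls; each point is a gene, and filled points are called. Genes with a mean under 4 counts in 1 of the groups are left out, as are MT1E and the 9 members; MT2A, S100A8, S100A9 and LCN2 lie between 7.68 and 8.09 at 16 hours.

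SLC40A1 (ferroportin), the only known cellular iron exporter, had lower means in the treated groups and differed by less than 2-fold in each. Preterm controls had 406.5, 320.2, 452 and 288.5 CPM, and LPS 16h animals had 305.5, 216, 279.9 and 256 CPM. The fall by 0.46 on the log2 scale at 16 hours passed the test (adjusted p = 0.032) without reaching 2-fold, and the adjusted p lay between 0.013 and 0.12 in the alternatives. The LPS 5d group had 231, 259.5 and 321.5 CPM (log2 -0.43, adjusted p = 0.11). LPS + Beta-Ac 5d animals had 312, 242 and 250.4 CPM (log2 -0.44, adjusted p = 0.095). Term controls had 282.5 and 339 CPM. Each of these groups overlapped the preterm controls.

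Among 15 genes of iron export, storage and systemic control, SLC40A1 included, 3 were called higher and 1 lower at 16 hours. That is 26.7% of them beside 14.4% of all genes, and the median log2 change was 0.096. CP (ceruloplasmin), the copper oxidase that loads exported iron onto transferrin, ranged from 43.3 to 85.0 CPM in preterm controls and from 736 to 846 CPM at 16 hours (log2 3.52 ± 0.21 SE, adjusted p = 9.4e-09). CP overlaps the neighbouring gene HPS3 in a later annotation. FTH1, the ferritin heavy chain that stores iron, ranged from 505 to 847 CPM and from 2327 to 3206 CPM (log2 2.14 ± 0.24 SE, adjusted p = 6.1e-06). The third was HAMP, the hormone hepcidin that removes ferroportin from the cell surface, which had 0 or 1 count in each preterm control and 14 to 41 counts in each LPS 16h animal. BMP6, an inducer of hepcidin, was lower (13 and 5.22 CPM, log2 -1.36, adjusted p = 0.0014).

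At 5 days after LPS, CP, FTH1 and FTL, the ferritin light chain, were called higher in both treated groups. CP was at 331 CPM in LPS 5d (log2 2.29, adjusted p = 0.00012) and at 223 CPM in LPS + Beta-Ac 5d (log2 1.66, adjusted p = 0.00025), beside 69.7 CPM in preterm controls. FTH1 was at 1498 CPM (log2 1.26, adjusted p = 0.0049) and 1802 CPM (log2 1.5, adjusted p = 0.0012), beside 637 CPM. FTL was at 1243 CPM (log2 1.02, adjusted p = 0.013) and 1726 CPM (log2 1.47, adjusted p = 0.0010), beside 614 CPM. The FTL call in LPS 5d fell under 2-fold without preterm control 101 (log2 0.98). Term controls had 163 CPM of CP (log2 1.27, adjusted p = 0.017) and 1728 CPM of FTH1 (log2 1.33, adjusted p = 0.023). Both calls at term were lost without term control 200 and when the other groups were left out of the fit, that of CP also without term control 201, and that of FTH1 also without preterm control 092, 101 or 113.

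HMOX1 (heme oxygenase 1), which opens heme and frees its iron, was called higher in all 4 groups. It was at 10.1, 9.57, 11.1 and 8.77 CPM in preterm controls and at 105, 98.7, 98.2 and 77.7 CPM in LPS 16h animals. The increase was 9.53-fold (log2 3.25 ± 0.23 SE, adjusted p = 4.1e-08). The LPS 5d group had 27.2, 28.6 and 16.0 CPM, 2.35-fold above preterm controls (adjusted p = 0.0043). LPS + Beta-Ac 5d animals had 52.1, 46.3 and 29.8 CPM, 4.21-fold above them (adjusted p = 6.8e-05). Term controls had 30.7 and 15.9 CPM, 2.24-fold above them (adjusted p = 0.035), and this call was lost without term control 200 (log2 0.69, adjusted p = 0.34) and without preterm control 092, 101 or 113 (adjusted p from 0.062 to 0.071).

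CD163, the macrophage receptor for hemoglobin bound to haptoglobin, was the other heme gene called in all 3 treated groups. It ranged from 4.39 to 11.2 CPM in preterm controls, from 62.8 to 131 CPM in LPS 16h, from 18.3 to 26.1 CPM in LPS 5d and from 61.9 to 122.5 CPM in LPS + Beta-Ac 5d. The log2 differences from preterm controls were 3.60 (adjusted p = 3.5e-07), 1.59 (adjusted p = 0.0050) and 3.55 (adjusted p = 1.1e-05). Of 15 heme genes, HMOX1 included, 3 were called higher and 1 lower at 16 hours. That is 26.7% of them beside 14.4% of all genes, with a median log2 change of 0.24. ALAS1, the first enzyme of heme synthesis, was at 52.2 and 164 CPM (log2 1.65 ± 0.10 SE, adjusted p = 6.3e-09). The 1 called lower was FLVCR2, a transporter of the heme exporter family, at 69.3 and 22.5 CPM (log2 -1.59, adjusted p = 0.00015).

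HMOX1 is a target of NRF2, the transcription factor of the oxidative stress response. Of 8 other targets and regulators, 5 were called higher at 16 hours (62.5%, beside 14.4% of all genes), with a median log2 change of 1.09. TXNRD1 (thioredoxin reductase) was at 29.2 and 119.7 CPM (log2 1.99, adjusted p = 3.8e-07), SRXN1 (sulfiredoxin) at 5.47 and 17.9 CPM (log2 1.64, adjusted p = 0.0014), and GCLC, of glutathione synthesis, at 20.6 and 45.5 CPM (log2 1.11, adjusted p = 7.0e-05). The GCLC call fell just under 2-fold without animal 029 (log2 1.0) and was also lost with age at delivery as a covariate (log2 0.93). SLC7A11, the cystine importer, had a mean of 5 counts in preterm controls and 59.5 counts at 16 hours. In LPS 5d 1 of the 8 was called, SLC7A11, beside 4.83% of all genes, and the call was lost without preterm control 092, without animal 239 or without animal 242 (adjusted p up to 0.074). In LPS + Beta-Ac 5d 2 of the 8 were called, SLC7A11 and SRXN1, beside 6.5% of all genes. The SRXN1 call was lost without preterm control 101 or 113 or without animal 248 or 249 (adjusted p up to 0.099).

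Proteins that bind zinc, manganese or iron outside the cell were the list with the highest median log2 change at 16 hours, 7.68. S100A8 and S100A9 form calprotectin, which holds zinc and manganese, LCN2 (lipocalin 2) holds iron-laden bacterial siderophores, and LTF (lactoferrin) holds iron. LCN2 ranged from 5.04 to 12.1 CPM in preterm controls, 1848 to 2282 CPM in LPS 16h, 83.4 to 199.6 CPM in LPS 5d, 166 to 357 CPM in LPS + Beta-Ac 5d and was at 44.5 and 82.3 CPM at term. Its log2 difference was 8.09 ± 0.33 SE at 16 hours (adjusted p = 4.9e-10), 4.14 in LPS 5d (adjusted p = 5.0e-05), 4.96 in LPS + Beta-Ac 5d (adjusted p = 3.1e-06) and 2.99 at term (adjusted p = 0.0027). All 5 proteins of the list were called higher at 16 hours and in LPS + Beta-Ac 5d, and 2 of the 5 in LPS 5d and at term. Over all genes, 14.4% were called at 16 hours, 6.5% in LPS + Beta-Ac 5d, 4.83% in LPS 5d and 2.07% at term. S100A9 was at 4.48 CPM in preterm controls, 958 CPM at 16 hours (adjusted p = 1.5e-08), 77.2 CPM in LPS + Beta-Ac 5d (adjusted p = 0.00014) and 45.2 CPM at term (adjusted p = 0.0068, lost without term control 200). S100A8 was at 2.52, 505 and 25.9 CPM in the first 3 of these groups. S100A12 had 0 to 2 counts in each preterm control and 76 to 234 counts in each LPS 16h animal.

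Several of these genes are known to be expressed in leukocytes, and markers of macrophages and neutrophils were read beside them. The 12 macrophage markers summed to 120.3 to 171 CPM in preterm controls, 814 to 961 CPM in LPS 16h, 305 to 351 CPM in LPS 5d, 511 to 888 CPM in LPS + Beta-Ac 5d and 241 and 417 CPM at term. They were called higher in 8, 6 and 10 of 12 cases in the 3 treated groups. MARCO was the 1 marker of the 12 at 0 counts in every preterm control. Without CD14 the sums were 89.3 to 143 CPM in preterm controls, 249 to 409 CPM in LPS 16h, 192 to 269 CPM in LPS 5d and 391 to 718 CPM in LPS + Beta-Ac 5d. The 11 neutrophil markers in the table summed to 27.6 to 59.5 CPM in preterm controls, 1412 to 2189 CPM in LPS 16h, 82.3 to 133 CPM in LPS 5d and 174 to 378 CPM in LPS + Beta-Ac 5d. The list holds the S100 genes named above, and without them the sums were 22.4 to 51.8, 179 to 320.5, 58.3 to 96.2 and 122 to 185 CPM in the same order. Neutrophil markers were called higher in 8, 3 and 7 of 11 cases in the 3 treated groups, with median log2 differences of 3.42, 0.77 and 2.23. The granule markers MPO and ELANE, 2 of the 3 not called at 16 hours, were at most at 0.72 and 0.53 CPM in LPS 16h. A better expressed neutrophil marker, CXCR2, was lower in LPS 16h than in LPS 5d (13.8 and 29.8 CPM). CD163 is itself 1 of the 12 macrophage markers, and without it they summed to 116 to 160 CPM in preterm controls and 696 to 888 CPM in LPS 16h. At 16 hours markers of macrophages and neutrophils were higher together with SLC39A8, SLC39A14, TFRC, HMOX1, STEAP4, CD163 and the metal-binding proteins. SLC11A1, placed above in the phagosome of these cells, was 1.28-fold higher there (125 and 159.5 CPM) and was not called. In LPS + Beta-Ac 5d macrophage sums were also above all preterm controls. SLC39A8, HMOX1 and STEAP4 were called higher there (4.09-, 4.21- and 2.85-fold). SLC39A14 (11.4 to 14.3 CPM) and TFRC (88.5 to 125 CPM) were not called there. The part of these cells in the results was not tested.

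**Figure D4:**
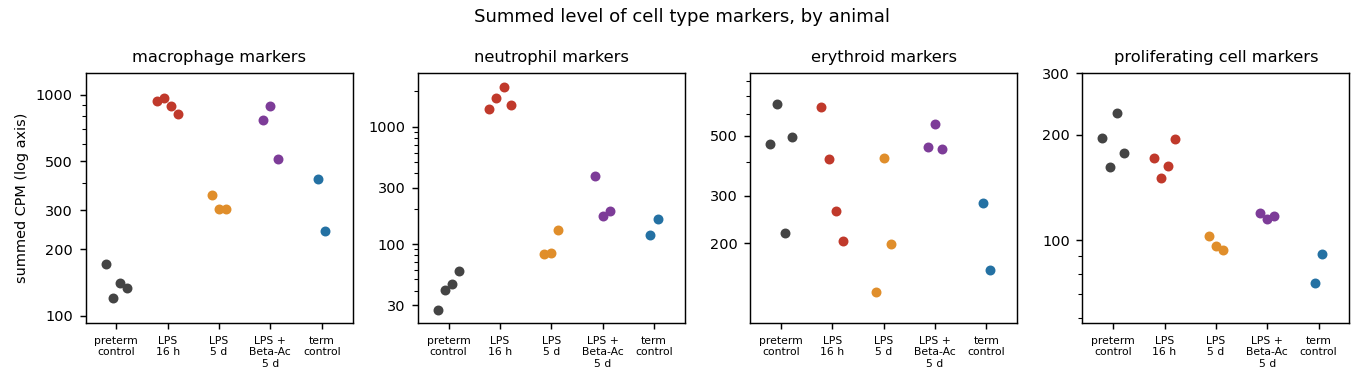
Summed CPM (y axis, log scale) of markers of macrophages, neutrophils, erythroid cells and proliferating cells by group; points are animals. Macrophage and neutrophil sums are lowest in preterm controls, and erythroid sums, most of which are HBA1, overlap between preterm controls and LPS 16h (7 of the 8 erythroid markers had a positive log2 difference there).

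Other cell types also shifted. The 7 alveolar type 1 markers, of the flat gas-exchange epithelium, summed to 1893 to 2446 CPM in preterm controls and to 937 to 1095 CPM at 16 hours, where 5 of the 7 were called lower. Alveolar type 2 markers summed to 7056 to 12320 CPM in preterm controls, 10530 to 24560 CPM at 16 hours, 17020 to 31580 CPM in LPS 5d, 19400 to 32360 CPM in LPS + Beta-Ac 5d and 18260 and 23470 CPM at term. Fibroblast markers summed to 11640 to 19900 CPM in preterm controls, 8000 to 11540 CPM at 16 hours and 7429 to 13450 CPM in LPS 5d. They summed to 7083 to 9895 CPM in LPS + Beta-Ac 5d and to 7104 and 7156 CPM at term. Lymphocyte markers summed to 26.4 to 41.6 CPM in preterm controls, and to 49.5 to 63.5, 43.8 to 49.5, 57.9 to 71.5 and 50.9 to 51.2 CPM in the other groups in that order. The part of these shifts in the members' levels was not tested.

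The comparison of LPS 16h with LPS 5d asks which changes differed between the early and the later time. 5 members were called higher at 16 hours, SLC39A8, SLC39A14, TFRC, HMOX1 and STEAP4, against 14.6% of all genes. The differences were 1.76 ± 0.32 SE for SLC39A8 (adjusted p = 0.00061), 3.50 ± 0.26 for SLC39A14 (adjusted p = 1.5e-07), 2.27 ± 0.24 for TFRC (adjusted p = 4.4e-06), 2.02 ± 0.25 for HMOX1 (adjusted p = 1.7e-05) and 3.52 ± 0.27 for STEAP4 (adjusted p = 2.9e-07), all on the log2 scale. MTF1 was 0.92 higher (adjusted p = 0.0063, under 2-fold). The log2 differences of SLC30A1, SLC11A1 and SLC40A1 lay between -0.031 and 0.17, with 95% intervals within -0.43 and 0.78. Age at delivery was 130 or 131 days in LPS 16h and 131 to 134 days in LPS 5d. With it as a covariate the same 5 were called, and MTF1 joined them (log2 1.13, adjusted p = 0.0065). Erythroid markers were called higher in 5 of 8 cases in this comparison, with sums of 205 to 641.5 CPM in LPS 16h and 132 to 413 CPM in LPS 5d. Markers of neutrophils were called higher in 8 of 11 cases, of macrophages in 3 of 12 and of proliferating cells in 4 of 8. The other 3 neutrophil markers were lower at 16 hours and not called, among them CXCR2 (log2 -1.10, adjusted p = 0.055). The part of these cell types in the differences was not tested.

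Among other genes of the lists, 19 of 75 were called higher and 5 lower in LPS 16h than in LPS 5d. That is 32% of them beside 14.6% of all genes. Those called lower included SLC39A2 (log2 -3.14, adjusted p = 3.8e-05) and the zinc exporter SLC30A3, known from synaptic vesicles (5.37 and 16.8 CPM, log2 -1.63, adjusted p = 1.9e-05). CYBRD1 (log2 -1.46, adjusted p = 6.0e-06) and FLVCR2 (log2 -1.79, adjusted p = 0.00012) were also lower. Those called higher included MT2A (log2 6.32, adjusted p = 6.1e-08) and SLC11A2 (log2 2.45, adjusted p = 1.1e-07). CP was higher by 1.24 (adjusted p = 0.00070).

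The comparison of LPS + Beta-Ac 5d with LPS 5d asks what the glucocorticoid added. Age at delivery was 131 or 132 days in the former and 131 to 134 days in the latter. No member was called, against 0.104% of all genes (20 genes in all, and 925 at an unadjusted p below 0.05). With voom the count was also 0. HMOX1 came nearest, as the 1 member with an unadjusted p below 0.05: all 3 LPS + Beta-Ac animals (29.8 CPM and more) lay above all 3 LPS animals (28.6 CPM and less). Its log2 difference was 0.84 (95% interval 0.28 to 1.41, unadjusted p = 0.0062, adjusted p = 0.46). STEAP4 differed by 0.48 (95% interval -0.14 to 1.11, adjusted p = 1) and SLC39A8 by 0.15 (95% interval -0.58 to 0.87, adjusted p = 1). The SLC39A8 difference became negative without animal 239 (-0.017) or without animal 248 (-0.052). For the other 6 members the differences lay between -0.10 and 0.28, with 95% intervals within -0.72 and 0.82. These intervals reach past 2-fold in STEAP4 and HMOX1.

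Of the 75 other list genes tested, CD163 alone was called between LPS + Beta-Ac 5d and LPS 5d, at 92.4 and 23.0 CPM (log2 1.97 ± 0.35 SE, adjusted p = 0.0496). This call lay at the threshold, and 11 of 14 alternatives lost it, with adjusted p up to 0.25 and log2 differences from 1.73 to 2.23. The macrophage markers without CD163 summed to 280.2 to 325 CPM in LPS 5d and to 449 to 766 CPM in LPS + Beta-Ac 5d, a shift whose part in the CD163 and HMOX1 differences was not tested.

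LPS-treated animals were also set against term controls, which asks how near the preterm lung was to the level of a lung at 156 to 157 days. No member was called in LPS 5d against term controls (0.0625% of all genes, 12 genes, and 2109 at an unadjusted p below 0.05) or in LPS + Beta-Ac 5d against term controls (0.568% of all genes, 109 genes, and 2774 at an unadjusted p below 0.05). At an unadjusted p below 0.05 there were 1 of 9 members in the former and 2 of 9 in the latter. In LPS 5d the log2 differences of the 9 members lay between -0.56 and 0.27. STEAP4 was the lowest (95% interval -1.26 to 0.14), and all 3 LPS 5d animals lay below both term controls. In LPS + Beta-Ac 5d HMOX1 had the largest difference, 0.91 (95% interval 0.28 to 1.54, adjusted p = 0.17). With 2 term controls, the 95% intervals of SLC39A8 reached from -0.69 to 0.94 in LPS 5d, short of 2-fold in both directions, and from -0.54 to 1.09 in LPS + Beta-Ac 5d. Among other list genes, LCN2 (251 and 63.4 CPM, log2 1.98, adjusted p = 0.0496) and CD163 (92.4 and 19.3 CPM, log2 2.21, adjusted p = 0.022) were higher in LPS + Beta-Ac 5d than at term. The LCN2 call was lost in 9 of 12 alternatives, and that of CD163 in 4 of 12.

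Among untreated animals the levels of 3 members were set beside age at delivery. Preterm controls delivered at 135 days (113 and 209) had 221 and 199.8 CPM of SLC39A8, and those delivered at 131 and 133 days (101 and 092) had 94.3 and 99.9 CPM. STEAP4 was at 50.2 and 37.4 CPM in the former and at 27.2 and 26.6 CPM in the latter. HMOX1 did not separate them, with 11.1 and 8.77 CPM against 9.57 and 10.1 CPM. Term controls lay above all 4 preterm controls in these 3 genes. This is a description of 6 animals, with no test. Marker sums of alveolar type 2 cells separated the same preterm controls (12320 and 10520 CPM at 135 days, 7056 and 7878 CPM in animals 101 and 092). So did those of fibroblasts, alveolar type 1 cells and neutrophils, and in the other direction lymphocytes. Macrophage, erythroid, endothelial and proliferating cell sums did not separate them. The part of these sums was not tested. With age at delivery as a covariate and term controls left out, the log2 difference of SLC39A8 from preterm controls was 4.10 in LPS 16h, 2.02 in LPS 5d and 2.38 in LPS + Beta-Ac 5d, and that of STEAP4 was 4.80, 1.10 and 1.71, and all 6 calls were kept.

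**Figure D5:**
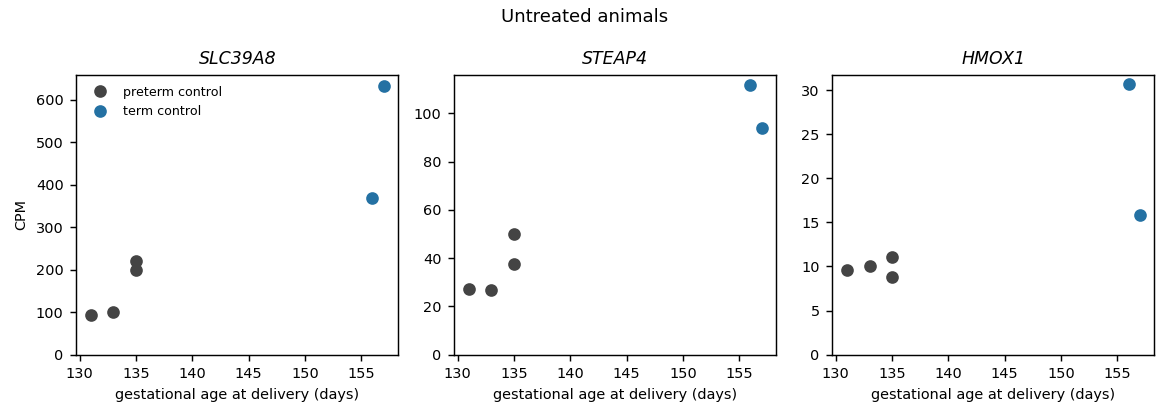
CPM (y axis, from 0) of SLC39A8, STEAP4 and HMOX1 in the 6 untreated animals against gestational age at delivery in days (x axis). Both preterm controls delivered at 135 days are above those delivered at 131 and 133 days in SLC39A8 and STEAP4, and both term controls are above all preterm controls in all 3 genes.

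The genes whose pattern over the 16 animals was most like that of each member were sought among 13799 genes, as the mean absolute difference of log2 CPM after centring on preterm controls. CP was nearest to SLC39A8 at 0.43, followed by PLA1A at 0.44, where the median over the 13799 genes was 2.02. HCLS1 and FERMT3 were nearest to HMOX1, at 0.17 and 0.23, where the median was 1.64. CD14 and SGPP2 were nearest to STEAP4, at 0.40 each, where the median was 1.92. PPA1 (0.26) and HYOU1 (0.29) were nearest to SLC39A14, and LACTB (0.23) and RNF19B (0.25) to TFRC. For the 4 members that changed by less than 2-fold, the nearest genes were BROX and ZNF43 for SLC30A1, SMC1A and N4BP1 for MTF1, RNF167 and TRAP1 for SLC11A1, and DIXDC1 and CLDN12 for SLC40A1, all at 0.14 or less. These distances are descriptions over animals of 5 groups and carry no test.

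The 9 members together took 0.078% to 0.101% of all counts in preterm controls, 0.284% to 0.422% in LPS 16h, 0.109% to 0.136% in LPS 5d, 0.112% to 0.157% in LPS + Beta-Ac 5d and 0.112% and 0.152% at term. Over the whole set of 75 other list genes tested, 26 were called higher and 4 lower at 16 hours, 9 and 0 in LPS 5d, 13 and 0 in LPS + Beta-Ac 5d, and 4 and 0 at term. These are 40%, 12%, 17.3% and 5.33% of the set, beside 14.4%, 4.83%, 6.5% and 2.07% of all genes. The lists were chosen with earlier results of these data known, so the shares are a description. The median log2 changes below are of the same set of 75. Their median log2 changes were 0.44, 0.089, 0.071 and 0.035, beside -0.087, -0.002, -0.01 and -0.009 over all genes tested.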

How the data were processed

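Lung RNA was selected for poly(A), sequenced as 75 bp paired-end reads, assigned with kallisto to the rhesus build Mmul_10 and summarized per gene with tximport by the authors, who compared groups with DESeq2. The labels name Trizol for the extraction and the paper names an RNeasy kit. The sources used here give no tool versions. The authors deposited 1 whole-number count for each Ensembl gene in each animal, neither normalized nor filtered. The layout of the table could not be read by the automatic check of units, so its unit was recorded as other, no model for counts was run, and limma on log2 CPM took its place.

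Counts were scaled by TMM (30% of log ratios and 5% of mean values trimmed, in a function written for this purpose) and put on a log2 CPM scale (prior count 2). Genes with at least 0.371 CPM in 2 animals and 15 counts in total were tested (19199). A model with 1 mean per group over all 16 animals was fitted in R 4.3.3 with limma 3.58.1 (trend and robust). Log2 differences are on this scale, which understates changes of low genes, and CPM values are TMM-scaled. Tests are two-sided with Benjamini-Hochberg adjustment over all genes tested. Each replicate is 1 fetus. Symbols came from a table of Ensembl IDs. The steps were tested on simulated data.

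Members and lists were chosen with earlier results of these data known. The text names all 9 members and, from each list, up to 4 called genes per comparison in order of change where the groups did not overlap. A gene with a mean under 4 counts in 1 of the groups is given without a fold change. CPM was not compared between genes, since no transcript lengths were used. Alternatives were median-of-ratios scaling, no filter, a prior count of 0.5, voom, the compared groups only, no minimum fold change, leaving out each animal and age at delivery as a covariate. Thinning of each library to 20169363 counts, and the covariate in comparisons with preterm controls, were added after seeing the data. SLC39A3, ERFE, HP and 5 metallothionein symbols of the lists were not matched, nor were the markers HBB, HBA2, HBG1, HBG2 and FCGR3A. No sequence or coordinate is given, since no genome of the build was used here.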

Additional observations from a re-analysis of the deposited data

Results flagged for a closer look

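In 5 members the change from preterm controls at 16 hours after LPS differed from the change at 5 days by a direct test of the difference (limma, all 16 animals). The 16-hour change was larger by 1.76 on the log2 scale for SLC39A8, by 3.50 for SLC39A14, by 2.27 for TFRC, by 2.02 for HMOX1 and by 3.52 for STEAP4, and in each the 4 animals at 16 hours lay above the 3 animals at 5 days. The preterm controls cancel in this difference, and dams of the LPS 16h group were injected at 129 or 130 days and those of LPS 5d at 126 to 129 days. Over all genes, 14.6% were called between these groups, and the share of genes whose animals did not overlap was not counted. Within groups of 4 animals no member held an animal far from the others by Dixon's test, in 18 groups tested, where about 1 in 20 would be marked by chance.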

How the results depend on the processing

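Of 8 counts of called members, 3 moved by over 1.5 times. With no minimum fold change, 8 members were called in LPS 16h (MTF1, SLC11A1 and SLC40A1 joined), beside 38.3% of all genes. In LPS + Beta-Ac 5d 5 were called in that way (SLC30A1 and SLC11A1 joined), beside 17.3% of all genes. At term the count was 1 when the other groups were left out of the fit, beside 0.621% of all genes. SLC39A8 (adjusted p = 0.13) and HMOX1 (adjusted p = 0.080) were lost there. The count at term also fell when some single animals were left out. HMOX1 at term was also lost with voom (adjusted p = 0.063). In LPS 16h the 5 calls were kept in all 16 alternatives, and those of SLC39A8 and HMOX1 in LPS 5d and LPS + Beta-Ac 5d in all 15. Among differences that did not pass, TFRC in LPS 5d ranged from -0.18 to 0.27 without single animals, and SLC39A8 between LPS + Beta-Ac 5d and LPS 5d from -0.052 to 0.40. Of 65 list gene results with a fold change, 50 kept their call in every alternative and 0 reversed. Groups of 2 to 4 animals limit these comparisons more than depth, since each member had at least 207 counts in every library. No paired analysis was possible because the groups share no animal numbers.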
